A study of Mus musculus with 2 samples.

Results

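Genes for making cholesterol and fatty acids were followed through the cells of mouse intestinal co-cultures. The 31 genes were chosen by name: 18 enzymes of cholesterol synthesis, 5 regulators of the SREBP transcription factors, 5 enzymes of fatty acid synthesis and activation, and 3 genes of sterol transport. All 31 are among the 18309 gene rows that both tables hold, with Msmo1 under its older symbol Sc4mol. C57BL6 mice, 10 weeks old, gave small-intestinal crypts and fibroblasts, which were grown together in organoid medium and profiled by Drop-seq, which captures single cells with barcoded beads in droplets. Cultures given the solvent DMSO (Ptger4-ON) grew as spheroids. Cultures given 10 µM ONO-AE3-208, an inhibitor of the prostaglandin E2 receptor EP4 (gene Ptger4), in DMSO every second day (Ptger4-OFF) grew as budding organoids. Each condition is 1 library from a pool of 6 cultures. No condition has a replicate library, so each value below carries only the error of counting molecules and no p-value is given.

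Cells build cholesterol from acetyl-CoA through mevalonate, farnesyl pyrophosphate, squalene and lanosterol, and build fatty acids from citrate-derived acetyl-CoA. The SREBP proteins, made from Srebf1 and Srebf2, switch these genes on. They are escorted from the endoplasmic reticulum by SCAP when sterols are scarce and held there by INSIG1 and INSIG2 when sterols are plentiful. The epithelium of the small intestine both absorbs cholesterol and makes it.

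Promoters of the members were read from RefSeq (GRCm38.p6), from 250 bases before to 50 after the start site. The table held 32 promoters for 24 of the 31 genes. It had no entry for Sqle, Fdft1, Fdps, Stard4, Npc1, Scd1 and Scd2. The motifs searched on both strands were the sterol regulatory element as TCACNCCAC and as CACCCCAC, CCAAT (NF-Y), CACGTG (E-box) and GGGCGG (Sp1). The first 2 overlap each other where both match. CCAAT stood in 68.8% of the members' promoters and in 37.4% of all 32851 promoters of the table. CACGTG stood in 21.9% and 7.15%, and GGGCGG in 81.2% and 35.7%. TCACNCCAC was found for Hmgcs1 alone among the 24 genes, and in 1.24% of all promoters. CACCCCAC was found for Hmgcs1 and Acat2, and in 2.87% of all. A match is a string of letters, not a measured binding site.

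Promoters of 4 genes are shown because the results below turn on them or, for Hmgcs1, because it alone held the full sterol element. Insig1 encodes the feedback arm, Sc5d was the 1 member past 1.5-fold higher in Grem1-type fibroblasts of both libraries, and Tm7sf2 was the 1 cholesterol enzyme past 1.5-fold between the epithelia. Capitals mark the sterol element, the E-box and the NF-Y motif, which reads ATTGG where it lies on the other strand. The sequences run 5′ to 3′ on the gene's strand. Hmgcs1 lies on the plus strand at chr13:119690101-119690400, Insig1 on the plus strand at chr5:28071162-28071461, Sc5d on the minus strand at chr9:42264251-42264550 and Tm7sf2 on the minus strand at chr19:6067801-6068100.
Hmgcs1: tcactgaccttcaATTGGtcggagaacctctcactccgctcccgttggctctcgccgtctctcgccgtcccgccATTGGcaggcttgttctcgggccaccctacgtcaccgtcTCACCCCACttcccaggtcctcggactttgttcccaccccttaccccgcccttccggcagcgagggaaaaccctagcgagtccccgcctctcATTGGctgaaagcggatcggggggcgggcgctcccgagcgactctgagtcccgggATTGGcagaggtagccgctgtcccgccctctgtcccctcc
Insig1: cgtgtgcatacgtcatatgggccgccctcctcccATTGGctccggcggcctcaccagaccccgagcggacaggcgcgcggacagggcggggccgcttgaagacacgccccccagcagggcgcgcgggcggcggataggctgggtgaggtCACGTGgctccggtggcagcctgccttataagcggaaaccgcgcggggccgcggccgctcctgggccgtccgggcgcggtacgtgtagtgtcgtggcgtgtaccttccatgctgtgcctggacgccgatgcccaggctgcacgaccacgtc
Sc5d: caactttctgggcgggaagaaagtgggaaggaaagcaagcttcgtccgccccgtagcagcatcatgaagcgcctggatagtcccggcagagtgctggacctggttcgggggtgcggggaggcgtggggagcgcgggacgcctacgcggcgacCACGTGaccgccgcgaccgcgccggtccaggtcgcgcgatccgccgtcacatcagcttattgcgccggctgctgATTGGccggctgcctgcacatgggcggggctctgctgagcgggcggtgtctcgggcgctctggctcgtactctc
Tm7sf2: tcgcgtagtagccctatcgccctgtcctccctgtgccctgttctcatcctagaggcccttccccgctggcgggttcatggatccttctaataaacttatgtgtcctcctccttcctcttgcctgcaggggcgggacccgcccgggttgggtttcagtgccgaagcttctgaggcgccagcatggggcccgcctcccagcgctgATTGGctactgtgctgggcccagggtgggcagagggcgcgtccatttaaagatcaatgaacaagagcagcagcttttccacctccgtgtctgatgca
In Hmgcs1 the sterol element begins at -137 from the start site. The E-boxes of Insig1 and Sc5d begin at -101 and -98.

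The libraries held 908 and 1599 barcodes with 7408303 and 9490205 counts in all (Ptger4-ON first, here and below). After filters, 588 and 1200 cells were epithelial-like and 288 and 360 fibroblast-like, by marker genes. Clusters were made without the 31 genes and without the further lipid genes named at the end. They gave a fetal-like cluster (led by Msln, Clu and Il1rn), a cycling cluster, a cluster led by genes that include Nrn1 and Ttr, a Paneth and goblet-like cluster, an enterocyte-like cluster and 2 fibroblast types led by Grem1 and by Mgp. An enteroendocrine-like cluster held 1 and 17 cells and is not described. The Grem1 type held 52 cells in each library and the Mgp type 236 and 308. With each library clustered on its own, Ptger4-OFF gave no separate Grem1-type cluster. Transcripts of Y-linked genes were found in 19 and 17 Grem1-type cells but in 2 and 5 Mgp-type cells. For those cells the fibroblast type and the sex of the animal of origin cannot be told apart. Barcodes over 50000 UMIs numbered 16 and 6, all epithelial-like, with 22.9% and 4.97% of that class's UMIs. In pooled cells a level mixes how many cells express a gene with how much each makes.

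Epithelial-like cells held more cholesterol-pathway mRNA than fibroblast-like cells of the same library. Levels are UMIs per 1000000 UMIs of a class (CPM). The 18 enzymes summed to 2479 CPM in the epithelium and 719 CPM in the fibroblasts of Ptger4-ON, 3.45-fold higher (95% interval 3.25 to 3.66). In Ptger4-OFF they summed to 2519.9 and 1025 CPM, 2.46-fold higher (95% interval 2.34 to 2.58). The gap between the classes was narrower in Ptger4-OFF. A gene was counted as different where it had at least 20 UMIs over both sides and a ratio of at least 1.5-fold. By that measure 18 of 18 enzymes were higher in the epithelium in Ptger4-ON, where 38.2% of all genes were, and 15 of 18 in Ptger4-OFF, where 38.0% were. The other 3 in Ptger4-OFF were Mvk, Hsd17b7 and Sc5d. In Ptger4-ON, Sc5d was 1.33-fold higher without barcodes over 50000 UMIs, no longer past 1.5-fold.

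Tm7sf2, which reduces the C14 double bond of sterols, had the widest gap of the 18, 10.4-fold higher (95% interval 5.2 to 24.3) and 11.8-fold higher (95% interval 6.72 to 23). Its exon positions overlap those of Vps51 on the same strand, so part of its counts may belong to that gene. Acat2, which joins the first acetyl-CoA units, was 7.81-fold and 4.16-fold higher in the epithelium. Sc5d, a late desaturase, differed least: 105 against 69.4 CPM in Ptger4-ON and 109 against 119.6 CPM in Ptger4-OFF. The fatty acid enzymes were 2.5-fold and 2.44-fold higher in the epithelium.

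The regulators and transporters divided between the classes. Insig1 was 4.32-fold and 3.43-fold higher in the epithelium, but Insig2 was 1.65-fold and 1.5-fold lower there. Both proteins hold SREBPs back. Srebf1 was 2.11-fold and 2.47-fold higher in the epithelium and Srebf2 2.17-fold and 1.43-fold. Scap was 1.37-fold and 1.26-fold lower. As a sum, the regulators came to 298 CPM in the epithelium and 204 CPM in the fibroblasts of Ptger4-ON. In Ptger4-OFF they came to 329 and 219 CPM. Stard4, which carries cholesterol between membranes, was 6.81-fold and 5.76-fold higher in the epithelium. Abca1, which exports cholesterol, was higher in fibroblasts, with 3 epithelial and 21 fibroblast UMIs in Ptger4-ON and 30 and 15 in Ptger4-OFF. Npc1, which releases cholesterol from lysosomes, had 22.2 against 29 CPM and 18.1 against 38.6 CPM.

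In fibroblasts the cholesterol enzymes were higher in Ptger4-OFF. Their sum was 719 CPM in Ptger4-ON and 1025 CPM in Ptger4-OFF, 1.43-fold higher (95% interval 1.33 to 1.53). All 17 enzymes with at least 20 UMIs were higher, Idi1 having 2 and 1 UMIs. Of the 17, 7 passed 1.5-fold upward and none downward, beside 6.73% and 7.64% of the 9757 genes measured. The enzymes' median log2 ratio was 0.51, against 0.02 for all genes. For 9 of the 17 the whole counting interval lay above no difference.

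The 7 enzymes past 1.5-fold act at steps of the pathway before and after lanosterol. At its start, Acat2 was at 21.1 CPM in Ptger4-ON and 38.6 CPM in Ptger4-OFF, 1.83-fold higher (95% interval 1.22 to 2.81). Pmvk, the second kinase acting on mevalonate, was at 23.9 and 40.2 CPM, 1.68-fold higher (95% interval 1.14 to 2.52). Mvd, which makes isopentenyl pyrophosphate, was at 17.1 and 27.2 CPM, 1.59-fold higher (95% interval 0.993 to 2.59), and that interval reached no difference. Fdft1 makes squalene, the first intermediate committed to sterols. Fdft1 was at 16.5 and 26.1 CPM, 1.58-fold higher (95% interval 0.977 to 2.6), which also reached no difference, and it shares exon positions with Ctsb on the other strand.

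After lanosterol, Nsdhl, which removes methyl groups at C4, was at 16.5 and 31 CPM, 1.88-fold higher (95% interval 1.18 to 3.05). Ebp, which shifts the ring double bond, was at 26.8 and 48.9 CPM, 1.83-fold higher (95% interval 1.27 to 2.66). Sc5d was at 69.4 and 119.6 CPM, 1.72-fold higher (95% interval 1.37 to 2.17). It had the narrowest interval of the 7. The enzymes nearest to no difference were Hsd17b7 (1.1-fold), Dhcr7 (1.13-fold) and Sqle (1.16-fold). Hmgcs1, Mvk, Fdps, Lss, Cyp51, Tm7sf2 and Msmo1 lay between 1.29-fold and 1.43-fold higher.

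Of the regulators in fibroblasts, Insig1 alone passed 1.5-fold. It was at 23.9 and 40.2 CPM, 1.68-fold higher (95% interval 1.14 to 2.52). Insig1 is itself a target of the SREBPs. Insig2, Srebf1, Srebf2 and Scap differed by at most 1.08-fold either way. The fatty acid enzymes summed to 777 and 1036 CPM, 1.33-fold higher (95% interval 1.24 to 1.43), and all 5 were higher. Most of that sum is Scd2, a stearoyl-CoA desaturase, at 574 and 782 CPM, 1.36-fold higher (95% interval 1.26 to 1.48). Acsl3, which activates long-chain fatty acids, was 1.53-fold higher (95% interval 1.08 to 2.18). It shares exon positions with Utp14b on the same strand. Acly, which makes cytosolic acetyl-CoA, was 1.28-fold higher, Scd1 1.2-fold and Fasn, the fatty acid synthase, 1.07-fold. Stard4 and Npc1 were 1.31-fold and 1.33-fold higher and Abca1 1.47-fold lower, each with an interval that reached no difference.

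**Figure D1:**
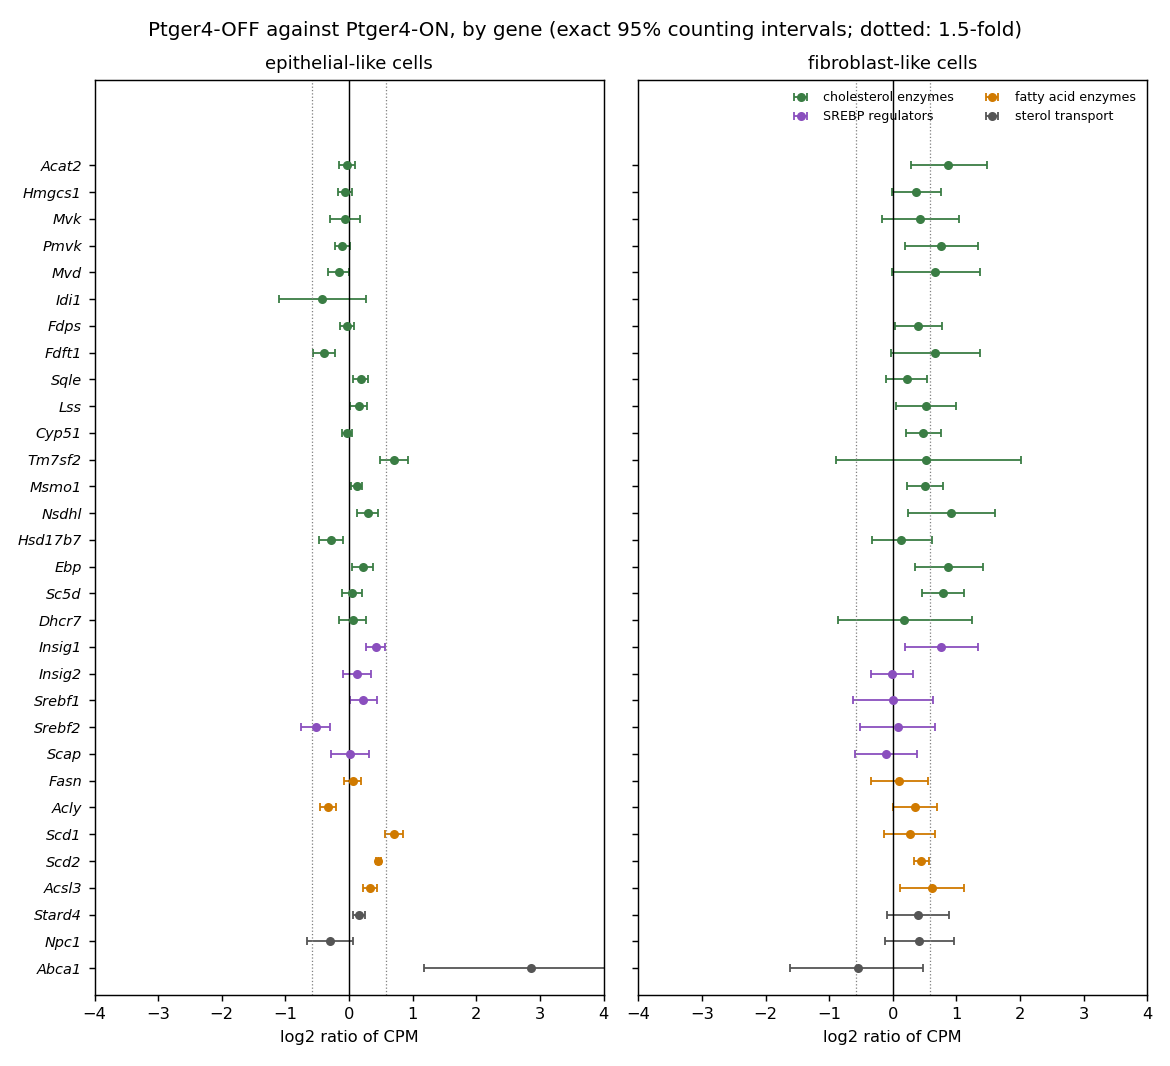
Log2 ratio of CPM in Ptger4-OFF over Ptger4-ON for each gene (rows), in epithelial-like cells (left) and fibroblast-like cells (right). Points are ratios, bars exact 95% counting intervals and dotted lines 1.5-fold. All 17 cholesterol enzymes measured in fibroblasts lie right of 0, while in the epithelium 8 lie right and 10 left. The interval of Abca1 on the left runs beyond the panel.

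Markers of other cells were measured beside this result. The 9 epithelial markers stood in fibroblast-like cells at 1.16% and 1.9% of their epithelial level, with none of the 9 at 0. At the same percentages the epithelial level of the cholesterol enzymes would give 28.6 and 47.8 CPM of the 719 and 1025 CPM measured. In the same fibroblasts the 10 cycling markers came to 545 and 475 CPM and the 7 adipocyte markers to 64.3 and 62 CPM, with 5 of the 7 at 0 in each library. With each cell given equal weight 17 of 17 enzymes were higher, and 5 passed 1.5-fold. Pmvk (1.07-fold), Nsdhl (1.23-fold) and Fdft1 (1.44-fold) then no longer passed it, and Tm7sf2 (1.53-fold) did. The share of all genes higher or past 1.5-fold was not measured with equal weights, so no excess can be read from these counts. In cells with a UMI of Xist, the transcript of the inactive X of females, and none of a Y-linked gene, the sum was 1.43-fold higher, 15 of 16 measured enzymes being higher. There Mvd (1.18-fold), Fdft1 (1.31-fold), Insig1 (1.28-fold) and Acsl3 (1.31-fold) were no longer past 1.5-fold.

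The difference was present in both fibroblast types. In the Mgp type the enzymes summed to 744 and 1018 CPM, 1.37-fold higher (95% interval 1.26 to 1.48), and 16 of 16 measured enzymes were higher. Acat2 (1.76-fold), Pmvk (1.66-fold), Mvd (1.54-fold), Nsdhl (1.91-fold), Ebp (1.96-fold), Sc5d (1.83-fold) and the regulator Insig1 (1.63-fold) passed 1.5-fold upward and none downward, where 7.3% and 7.95% of all genes did. In the Grem1 type they summed to 625 and 1068 CPM, 1.71-fold higher (95% interval 1.43 to 2.05). Only 8 enzymes had 20 UMIs there: 7 were higher and Sqle, which oxidises squalene, was 1.46-fold lower. Hmgcs1 (2.05-fold), Fdps, Lss (1.96-fold), Msmo1 and Sc5d (1.89-fold) passed 1.5-fold upward, as did Fasn (1.68-fold), Acly (1.65-fold), Scd1 (1.54-fold), Acsl3 (1.92-fold) and Npc1 (2.77-fold), beside 11.9% of genes. Fdps, which makes farnesyl pyrophosphate, was 3.07-fold higher (95% interval 1.52 to 6.52) in the Grem1 type and 1.12-fold higher (95% interval 0.848 to 1.49) in the Mgp type. Msmo1, a C4 methyl oxidase, was 2.45-fold higher (95% interval 1.54 to 3.94) and 1.27-fold higher (95% interval 1.02 to 1.58). With each cell given equal weight, Pmvk turned to 1.05-fold lower and Nsdhl to 1.23-fold higher in the Mgp type, and in the Grem1 type Scd1 turned to 1.247-fold lower and Fasn to 1.27-fold higher. Whether the types differ in these ratios was not tested. Cycling markers of the Grem1 type summed to 622 CPM in Ptger4-ON and 65.7 CPM in Ptger4-OFF, lower where the enzymes were higher. Their part in the result was not tested.

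Against the Mgp type of its own library, the Grem1 type held fewer regulator transcripts. The 5 regulators summed to 144 CPM in the Grem1 type and 221 in the Mgp type of Ptger4-ON, 1.53-fold lower (95% interval 1.14 to 2.08). They summed to 131 and 232 CPM in Ptger4-OFF, 1.76-fold lower (95% interval 1.23 to 2.62). Scap was 2.2-fold lower (95% interval 1.05 to 5.31) and 1.65-fold lower (95% interval 0.72 to 4.67), and Insig2 1.69-fold lower (95% interval 1.06 to 2.82) and 1.7-fold lower (95% interval 0.965 to 3.27). In the Grem1 type these rest on 8 and 6 UMIs of Scap and 21 and 13 of Insig2. Srebf1 had 10 UMIs in the Grem1 type and 34 in the Mgp type of Ptger4-ON, 1.09-fold higher, but 1 and 45 in Ptger4-OFF, 6.87-fold lower (95% interval 1.17 to 277). Srebf2 was 1.35-fold lower and 1.87-fold lower (95% interval 0.686 to 7.13), the second from 4 UMIs.

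The sum of the cholesterol enzymes did not separate the types in the same way in both libraries. It was 1.19-fold lower (95% interval 1.03 to 1.38) in the Grem1 type of Ptger4-ON and 1.05-fold higher (95% interval 0.916 to 1.2) in that of Ptger4-OFF. Among Xist-only cells, an alternative chosen after seeing the data, the sum was lower in the Grem1 type of both libraries. With the type set from marker UMIs of each cell, the sum was no longer lower in the Grem1 type of Ptger4-ON. Of the members, 27 were measured in both libraries and 19 had the same direction in both. The share of all genes with the same direction in both was not measured. No agreement particular to the members can be read from that count. Members past 1.5-fold upward in the Grem1 type numbered 2 in Ptger4-ON and 3 in Ptger4-OFF, beside 12.3% and 12.3% of all genes. Those past it downward numbered 9 of 28 and 9 of 27, beside 19.6% and 24.9%. Sc5d was higher in both libraries, at 115 against 57.1 CPM, 2.01-fold higher (95% interval 1.35 to 2.95), and 218 against 105 CPM, 2.08-fold higher (95% interval 1.5 to 2.85). Among Xist-only cells of Ptger4-ON, of which 18 were Grem1 type, the log2 ratio of Sc5d turned to -0.59.

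Acat2, Nsdhl, Hsd17b7, Acly, Insig2 and Scap were past 1.5-fold lower in the Grem1 type of both libraries, on few molecules. The share of all genes past 1.5-fold in both libraries, in either direction, was not measured. No excess among the members can be read from this overlap or from that of Sc5d. Acat2 had 5 and 6 UMIs in the Grem1 type, 1.73-fold lower (95% interval 0.67 to 5.7) and 1.65-fold lower (95% interval 0.72 to 4.67). Nsdhl had 4 and 2, 1.69-fold lower (95% interval 0.584 to 6.69) and 4.2-fold lower (95% interval 1.11 to 35.5). Hsd17b7, a sterol ketone reductase, had 9 and 6, 1.93-fold lower (95% interval 0.953 to 4.4) and 1.98-fold lower (95% interval 0.872 to 5.57). Acly was at 37.4 against 79.6 CPM and 61.6 against 94.6 CPM, 2.13-fold lower (95% interval 1.22 to 4.02) and 1.54-fold lower (95% interval 0.902 to 2.81). With the type set from the Grem1, Mmp10, Mgp and Spp1 UMIs of each cell, the log2 ratio turned to 0.11 for Nsdhl and 0.28 for Hsd17b7 in Ptger4-ON and to 0.16 for Acly in Ptger4-OFF. By that assignment 2 members were past 1.5-fold lower in the Grem1 type of Ptger4-ON (Hmgcs1 and Srebf2) and 3 in that of Ptger4-OFF (Pmvk, Srebf1 and Srebf2).

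The remaining differences between the types appeared in 1 library each. In Ptger4-ON, Hmgcs1, the HMG-CoA synthase, was 2.03-fold lower (95% interval 1.11 to 4.08) in the Grem1 type, Fdps 1.9-fold lower (95% interval 1.05 to 3.7) and Fasn 1.72-fold lower (95% interval 0.906 to 3.61), and Abca1 was 2.77-fold higher (95% interval 1.03 to 7.16) on 9 and 12 UMIs. In Ptger4-OFF, Sqle was 2.2-fold lower (95% interval 1.23 to 4.34), Msmo1 1.61-fold higher (95% interval 1.16 to 2.19) and Npc1 2.23-fold higher (95% interval 1.23 to 3.86). Msmo1 and Npc1 were 1.19-fold and 1.43-fold higher with each cell given equal weight, and 1.38-fold and 1.44-fold with the type set from UMIs of each cell, not past 1.5-fold by either. By that type, Sqle was 1.05-fold higher, Fdps 1.21-fold lower and Fasn 1.11-fold lower. The fatty acid enzymes were 1.39-fold lower (95% interval 1.21 to 1.62) and 1.16-fold lower (95% interval 1.01 to 1.34) in the Grem1 type, and Scd2 1.34-fold lower and 1.19-fold lower. The type set from UMIs of each cell turned both sums, to log2 ratios of 0.0614 and 0.0731.

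**Figure D2:**
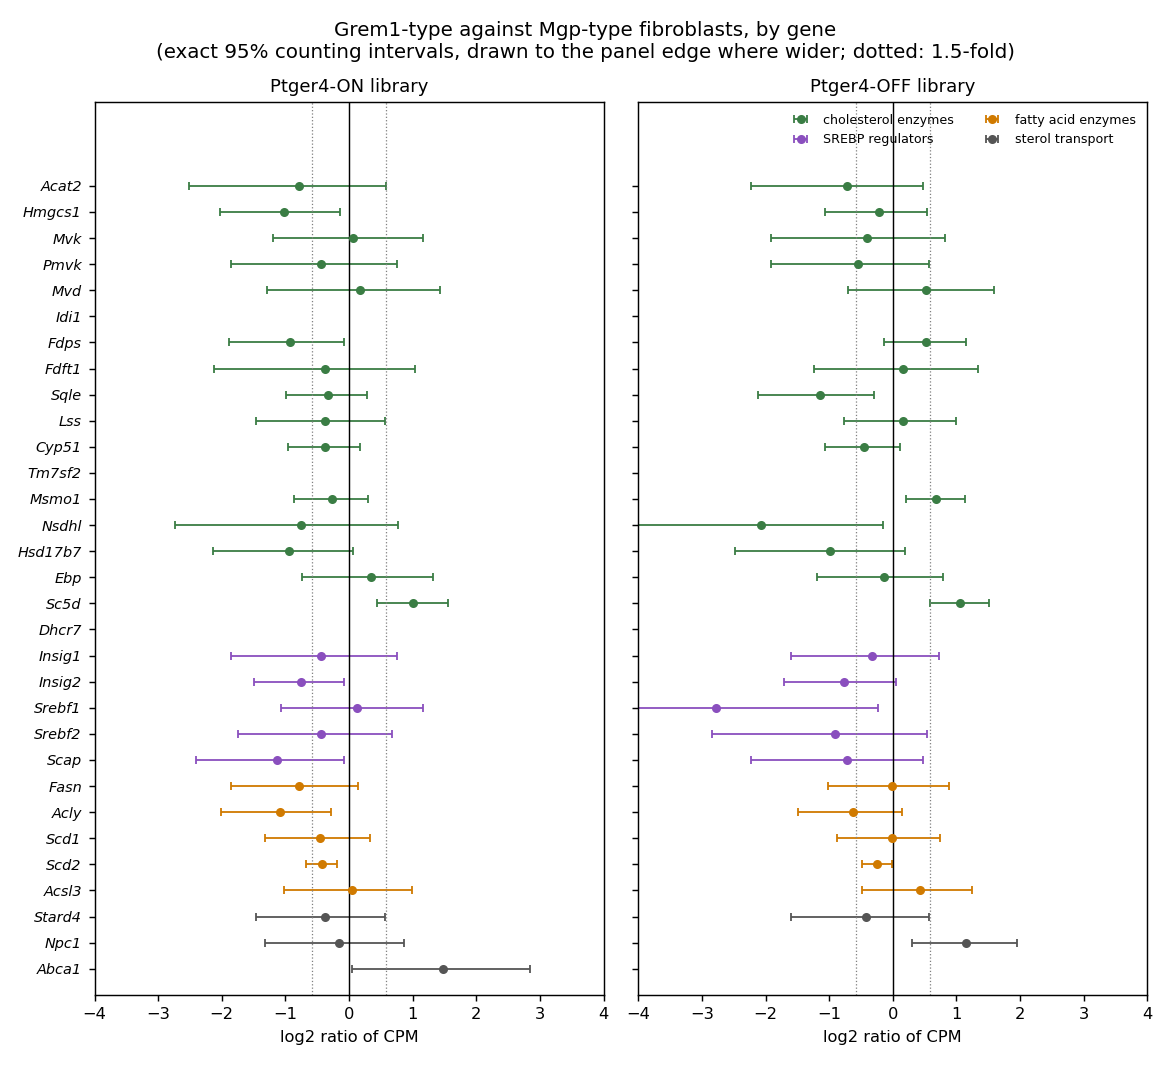
Log2 ratio of CPM in Grem1-type over Mgp-type fibroblasts for each gene with at least 20 UMIs, in Ptger4-ON (left) and Ptger4-OFF (right). Bars are exact 95% counting intervals. Sc5d lies 2.01-fold and 2.08-fold higher, and the regulators lie at or left of 0 except Srebf1 in Ptger4-ON.

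The epithelium as a whole differed less between the libraries in its cholesterol enzymes. They summed to 2479 CPM in Ptger4-ON and 2519.9 CPM in Ptger4-OFF, 1.02-fold higher (95% interval 0.995 to 1.04), with 8 higher and 10 lower and a median log2 ratio of -0.03 against -0.04 for all genes. The make-up of the class differed beside this: fetal-like cells were 195 of 588 and 80 of 1200, fetal-like markers came to 6858 and 2099.5 CPM, goblet markers to 6076 and 2248 CPM and enterocyte markers to 1406 and 3992 CPM. Of the 31 members 3 passed 1.5-fold upward and none downward, beside 7.41% and 10.6% of the 11613 genes measured. Tm7sf2 was at 47.3 and 77.2 CPM, 1.63-fold higher (95% interval 1.41 to 1.89). It shares exon positions with Vps51 on the same strand, and its reads cannot be told from those of that gene there. Scd1, a desaturase that makes oleate, was at 105 and 172 CPM, 1.64-fold higher (95% interval 1.48 to 1.81), but 1.42-fold higher with each cell given equal weight. Within the fetal-like, cycling, Nrn1 and Ttr and Paneth and goblet-like clusters it was 1.09-fold higher, 1.11-fold higher, 1.31-fold higher and 1.48-fold higher. Abca1 had 3 and 30 UMIs, 7.28-fold higher (95% interval 2.26 to 37.3), and 2 and 27 of these were in the enterocyte-like cluster.

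Smaller differences outside their counting intervals ran both ways in the epithelium. Fdft1 was 1.32-fold lower (95% interval 1.17 to 1.49), Hsd17b7 1.21-fold lower and Mvd 1.12-fold lower. Nsdhl was 1.22-fold higher (95% interval 1.09 to 1.37), Ebp 1.16-fold higher, Sqle 1.13-fold higher, Lss, which closes the sterol rings, 1.11-fold higher and Msmo1 1.09-fold higher. Acat2 (1.02-fold lower), Fdps (1.02-fold lower) and Cyp51 (1.02-fold lower) were nearest to no difference. Hmgcs1, Mvk, Pmvk, Sc5d and Dhcr7 were within 1.08-fold either way, and Idi1 was 1.34-fold lower on 38 and 39 UMIs.

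The regulators did not share a direction. Insig1 was at 103 and 138 CPM, 1.34-fold higher (95% interval 1.21 to 1.48). Srebf2, the SREBP gene tied mainly to cholesterol synthesis, was at 59.3 and 41.3 CPM, 1.44-fold lower (95% interval 1.23 to 1.68). Srebf1, tied more to fatty acids, was 1.17-fold higher (95% interval 1.01 to 1.36). It shares exon positions with Rai1 on the other strand. Insig2 and Scap were within 1.09-fold.

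The fatty acid enzymes summed to 1940.1 and 2527 CPM in the epithelium, 1.3-fold higher (95% interval 1.27 to 1.33). Scd2 was at 1339.6 and 1841 CPM, 1.37-fold higher (95% interval 1.34 to 1.41), and without it the other 4 enzymes summed to 600.5 and 686 CPM. Acsl3 was 1.26-fold higher (95% interval 1.16 to 1.36) and Fasn 1.04-fold higher. Acly was 1.26-fold lower (95% interval 1.15 to 1.37). Stard4 was 1.11-fold higher (95% interval 1.04 to 1.19), and Npc1 1.22-fold lower with an interval that reached no difference. Scd1 and Scd2 are close paralogs, and how reads shared by both were counted is not given in the sources used here.

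The enterocyte-like cluster had the highest cholesterol-enzyme sum of the epithelial clusters described in Ptger4-ON, but not in Ptger4-OFF. It held 25 cells in Ptger4-ON, where 1 barcode gave 41.7% of its UMIs, and 115 in Ptger4-OFF. Its cholesterol enzymes summed to 3985 and 2659.9 CPM, while the other 4 clusters lay between 2125 and 2802 CPM in Ptger4-ON and between 2290.3 and 2691 CPM in Ptger4-OFF. Against all other epithelial-like cells of its library the enterocyte-like sum was 1.65-fold higher (95% interval 1.54 to 1.77) in Ptger4-ON and 1.06-fold higher (95% interval 1.02 to 1.11) in Ptger4-OFF. Of 18 enzymes, 9 passed 1.5-fold upward in Ptger4-ON, beside 18.2% of all genes, and 1 in Ptger4-OFF, beside 16.1%. The 1 enzyme in Ptger4-OFF was Sc5d, 3.69-fold and 2.22-fold higher. Without barcodes over 50000 UMIs, Nsdhl (1.12) and Hsd17b7 (0.945) of Ptger4-ON were no longer past 1.5-fold, as ratios to the other cells, and Lss (1.92) was.

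Insig1 was high in enterocyte-like cells of both libraries. It was at 258 and 319 CPM, 2.67-fold higher (95% interval 1.99 to 3.51) and 2.78-fold higher (95% interval 2.41 to 3.19) against the other epithelial-like cells. Insig2 was 2.68-fold higher (95% interval 1.76 to 3.94) and 1.86-fold higher (95% interval 1.45 to 2.36). The first value rests on 1 barcode of 92081 UMIs in Ptger4-ON. Without barcodes over 50000 UMIs Insig2 had 8 UMIs there, 62.3 against 47.8 CPM, 1.3-fold higher. The 5 regulators summed to 517 and 537 CPM, and in the other 4 clusters of either library to between 278 and 342 CPM. Srebf1 and Srebf2 were within 1.252-fold. Scap was 1.7-fold lower and 2.4-fold lower. Acly was 2.21-fold lower (95% interval 1.37 to 3.81) and 2.02-fold lower (95% interval 1.56 to 2.67), and Fasn 3.12-fold lower and 2.0-fold lower, where 48.4% and 41.3% of all genes were past 1.5-fold lower. Acsl3 was 1.82-fold higher and 1.46-fold higher. Scd1 was 1.26-fold higher, or 1.73-fold without the deep barcodes, and 2.17-fold higher (95% interval 1.9 to 2.48). Abca1 had 2 UMIs here and 1 in all other epithelial-like cells of Ptger4-ON, and 27 and 3 in Ptger4-OFF, 69.1-fold higher (95% interval 21.3 to 356).

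Within enterocyte-like cells the cholesterol enzymes were lower in Ptger4-OFF, 1.5-fold lower (95% interval 1.38 to 1.62), opposite to the fibroblasts. All 17 measured enzymes were lower and 8 passed 1.5-fold, beside 14.9% of genes downward and 23.8% upward. The median log2 ratio was -0.57 against 0.04 for all genes. Pmvk was at 313 and 171 CPM, 1.83-fold lower (95% interval 1.35 to 2.45). Sqle was at 336 and 192 CPM, 1.75-fold lower (95% interval 1.31 to 2.31). Msmo1 was at 657 and 399.6 CPM, 1.65-fold lower (95% interval 1.35 to 2.0). These sit in the early, middle and late pathway. Sc5d was 1.65-fold lower (95% interval 1.2503 to 2.17), Nsdhl 1.71-fold lower (95% interval 1.11 to 2.59) and Fdft1 1.65-fold lower (95% interval 1.01 to 2.62). Mvk, the first mevalonate kinase, and Hsd17b7 were 1.56-fold lower and 1.54-fold lower, with intervals that reached no difference. Dhcr7, Acat2 and Tm7sf2 were nearest to no difference, 1.07-fold, 1.16-fold and 1.17-fold lower, and Idi1 had 5 and 4 UMIs. Stard4 was 1.49-fold lower (95% interval 1.18 to 1.88).

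A single barcode of 92081 UMIs gave 41.7% of the enterocyte-like UMIs of Ptger4-ON. With it the 9 goblet markers summed to 7014 CPM in that cluster, and without it to 514. Without barcodes over 50000 UMIs, 24 and 114 cells were left and the cholesterol enzymes were 1.37-fold lower in Ptger4-OFF, with 14 of 17 lower and 4 past 1.5-fold. The share of all genes lower or past 1.5-fold was not measured without those barcodes, so no excess can be read from these counts. Mvd, Nsdhl and Hsd17b7 were then no longer lower, at ratios of Ptger4-OFF to Ptger4-ON of 1.01, 1.05 and 1.03. Msmo1, Fdft1 and Sc5d were lower but no longer past 1.5-fold, at 0.829, 0.927 and 0.673, and Lss was past it at 0.499. Mvk was at 0.491. Sqle was then at 319 and 188 CPM, Pmvk at 296 and 161 CPM and Stard4 at 514 and 307 CPM. The 11 enterocyte markers then summed to 27686 and 31679.5 CPM, the fetal-like markers to 3051 and 1523 CPM and the cycling markers to 140.1 and 577 CPM. The part of these differences in the result was not tested.

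As a sum, the fatty acid enzymes of the same cells went the other way. They summed to 2181 and 3021 CPM, 1.39-fold higher (95% interval 1.26 to 1.53). Scd1 was at 131 and 329.9 CPM, 2.51-fold higher (95% interval 1.71 to 3.81), and 1.86-fold higher without barcodes over 50000 UMIs. Scd2 was 1.38-fold higher (95% interval 1.24 to 1.55), and 1.19-fold higher without those barcodes. Fasn was 1.67-fold higher (95% interval 0.881 to 3.49) on 11 and 73 UMIs, and 1.39-fold higher without them. Abca1 was 3.4-fold higher (95% interval 0.854 to 29.5) on 2 and 27 UMIs. Acly and Acsl3 were within 1.11-fold. Without barcodes over 50000 UMIs Acly was 1.32-fold lower, on 12 and 58 UMIs, and Acsl3 1.09-fold higher. Insig1 was 1.23-fold higher (95% interval 0.924 to 1.67). Insig2 was 1.36-fold lower, but 1.57-fold higher without barcodes over 50000 UMIs, where it had 8 and 80 UMIs.

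**Figure D3:**
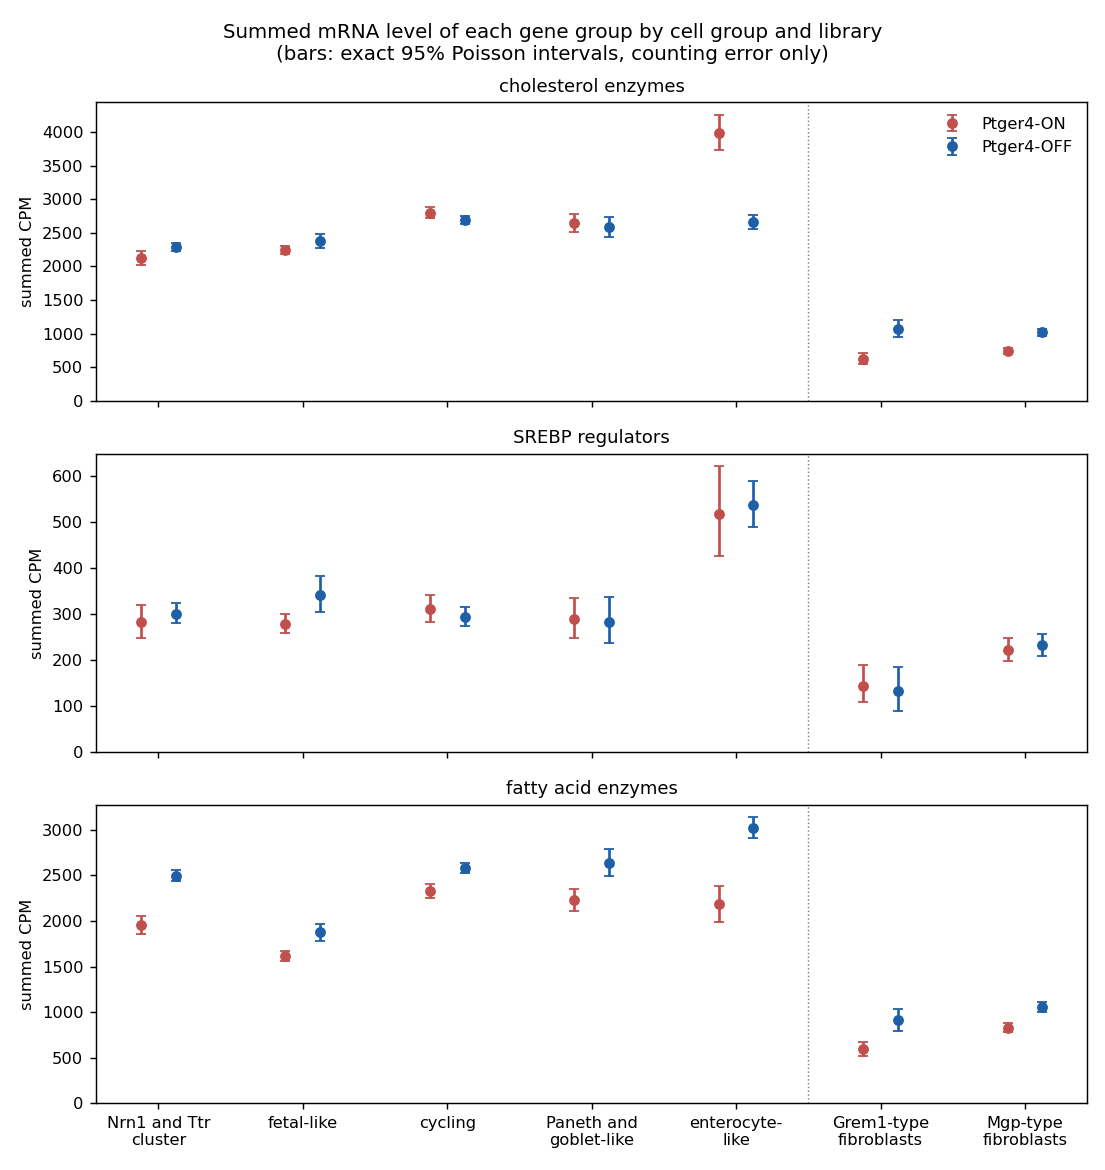
Summed CPM of the cholesterol enzymes, SREBP regulators and fatty acid enzymes (panels) in each cell group (x axis) of Ptger4-ON (red) and Ptger4-OFF (blue), with exact 95% Poisson intervals. Enterocyte-like cells of Ptger4-ON stand highest for cholesterol enzymes at 3985 CPM, and both fibroblast types lie below every epithelial group in each panel.

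In the other 4 epithelial clusters the cholesterol sums of the 2 libraries lay close together. They were 1.06-fold higher (95% interval 1.01 to 1.12) in the fetal-like (1.21-fold without barcodes over 50000 UMIs), 1.08-fold higher (95% interval 1.02 to 1.14) in the Nrn1 and Ttr, 1.04-fold lower (95% interval 1.0 to 1.08) in the cycling and 1.02-fold lower (95% interval 0.948 to 1.1) in the Paneth and goblet-like cluster of Ptger4-OFF. The fatty acid sums were higher in Ptger4-OFF in all 4, by 1.16-fold, 1.28-fold, 1.11-fold and 1.18-fold in the same order. Without Scd2 the remaining enzymes summed to 527 and 521 CPM in fetal-like and 594 and 627 CPM in Nrn1 and Ttr cells. They summed to 699 and 738 CPM in cycling and 676 and 763 CPM in Paneth and goblet-like cells. Scd2 was higher in Ptger4-OFF in each of the 5 epithelial clusters, from 1.13-fold in cycling to 1.38-fold in Nrn1 and Ttr and 1.38-fold in enterocyte-like cells.

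In fetal-like cells both regulators and enzymes differed between the libraries. Insig2 was at 62.6 and 116 CPM, 1.86-fold higher (95% interval 1.43 to 2.4), and Insig1 1.53-fold higher (95% interval 1.19 to 1.95). Srebf2 was at 58.9 and 29 CPM, 2.03-fold lower (95% interval 1.33 to 3.21). Tm7sf2 and Mvk were 1.65-fold higher and 1.52-fold higher. These were the 5 members past 1.5-fold, beside 6.76% of genes upward and 11.8% downward. Barcodes over 50000 UMIs, 10 and 2 of them, gave 30.6% and 12.4% of the UMIs of this cluster. Without them Nsdhl (2.18-fold), Msmo1 (1.63-fold) and Sqle (1.59-fold) were also past 1.5-fold higher, beside Tm7sf2 (2.1-fold), Mvk (1.66-fold), Insig1 (1.73-fold) and Insig2 (1.95-fold). With each cell given equal weight Mvk and Insig1 were 1.22-fold and 1.43-fold higher, no longer past it. Within each library, fetal-like cells also held the least fatty acid enzyme mRNA of the epithelial clusters, 1615 and 1874 CPM. Scd1 was 2.06-fold lower (95% interval 1.72 to 2.49) and 2.6-fold lower (95% interval 2.02 to 3.4) in them than in other epithelial-like cells, and Insig2 1.41-fold higher (95% interval 1.11 to 1.79) and 2.35-fold higher (95% interval 1.86 to 2.93).

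In the cycling cluster, Srebf2 was 1.71-fold lower (95% interval 1.26 to 2.31) in Ptger4-OFF and Idi1, an isomerase of the isoprenoid step, 1.61-fold lower on 12 and 15 UMIs. They were the 2 members past 1.5-fold, beside 6.89% of genes downward and 6.66% upward. In the Nrn1 and Ttr cluster Tm7sf2 was 1.6-fold higher (95% interval 1.16 to 2.24), the 1 member past 1.5-fold, beside 9.89% upward and 8.81% downward. In the Paneth and goblet-like cluster Fdft1 (1.77-fold lower), Hsd17b7 (1.98-fold lower), Insig2 (1.71-fold lower) and Fasn (1.55-fold higher) passed 1.5-fold, beside 10.9% downward and 11.8% upward. A single barcode gave 21.2% of the Ptger4-ON UMIs of that cluster and another 11.5% of those of Ptger4-OFF. Without both, Fdft1 (1.49-fold lower) and Insig2 (1.42-fold lower) were no longer past 1.5-fold and Mvd (1.51-fold lower) was. With each cell given equal weight Hsd17b7 (1.27-fold lower) and Fasn (1.31-fold higher) were not past it, and Insig2 turned to 1.07-fold higher. Of the 5 clusters, Acly was highest in this one, 252 and 223 CPM, 1.62-fold higher (95% interval 1.35 to 1.92) and 1.76-fold higher (95% interval 1.42 to 2.15) against the rest of the epithelium. Srebf2 was lower in Ptger4-OFF in fetal-like, cycling and Nrn1 and Ttr cells, and within 1.09-fold in the Paneth and goblet-like and enterocyte-like clusters.

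**Figure D4:**
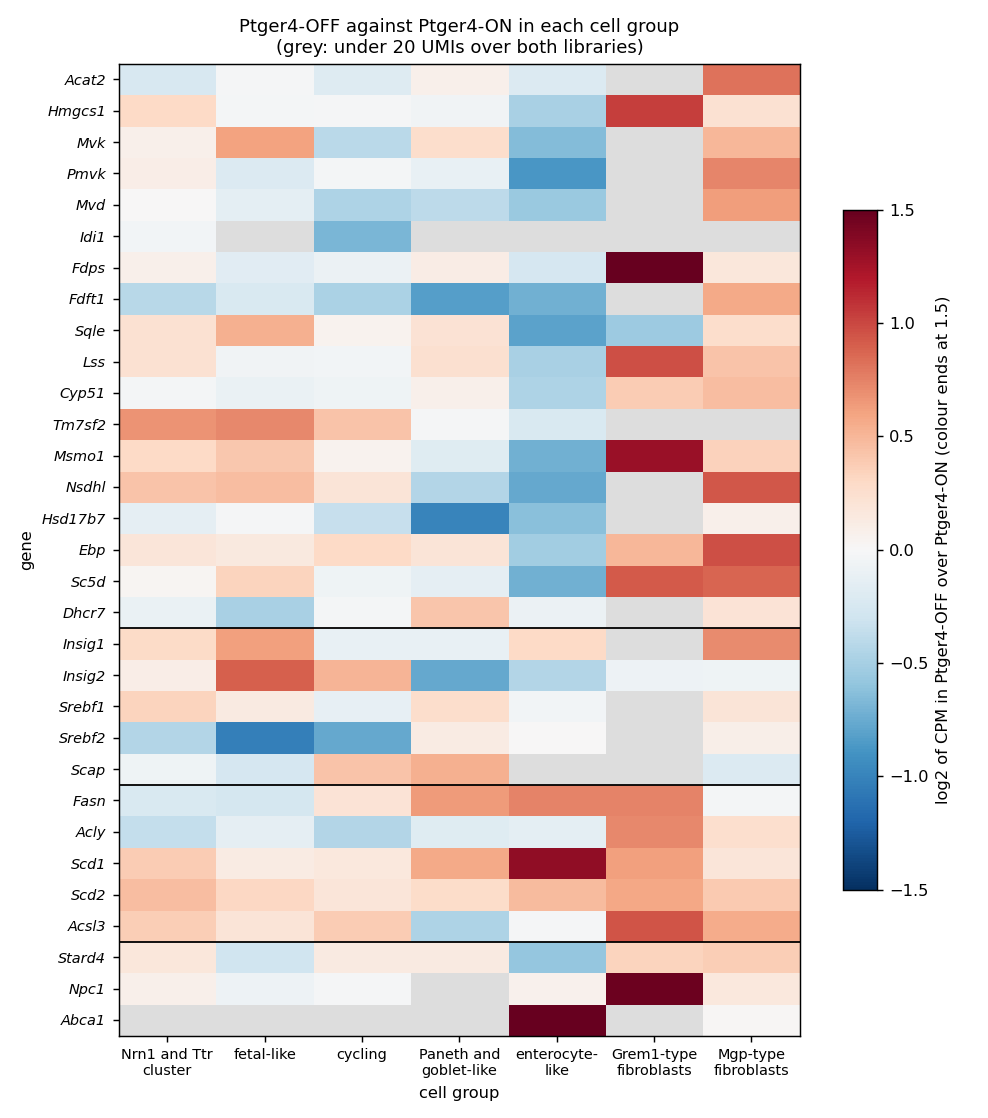
Log2 of CPM in Ptger4-OFF over Ptger4-ON for each gene (rows) in each cell group (columns), red for higher and blue for lower in Ptger4-OFF, with lines between the cholesterol enzymes, regulators, fatty acid enzymes and transport genes. Grey fields have under 20 UMIs over both libraries. The enterocyte-like column is blue for all 17 measured cholesterol enzymes and the Mgp-type column red for all 16.

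Single cells were compared after thinning each to 1000 UMIs, which left out 58 and 47 epithelial-like and 29 and 12 fibroblast-like cells. A fibroblast-like cell then held a mean of 0.757 and 1.08 cholesterol-enzyme UMIs, and 52.9% and 44% of these cells held none. Unthinned, 19.1% and 13.6% held none. Epithelial-like cells held 2.23 and 2.43 and enterocyte-like cells 3.52 and 2.55. The interquartile range of the enterocyte-like cells ran from 2.5 to 4 UMIs in Ptger4-ON and from 1 to 4 in Ptger4-OFF, so the cells of the libraries overlapped.

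A further list held 16 sterol and 20 fatty acid genes of the same pathways that are in the tables. In fibroblasts 6 of 13 measured sterol genes were higher and 7 lower in Ptger4-OFF, with a median log2 ratio of -0.00. Mylip, which marks lipoprotein receptors for breakdown, was 2.76-fold higher (95% interval 1.253 to 6.69), and Nr1h2, a liver X receptor that senses oxysterols, 1.64-fold lower (95% interval 1.02 to 2.69). Of 16 further fatty acid genes measured, 12 were higher, with a median of 0.14. Past 1.5-fold, 6.73% of all genes measured in fibroblasts were higher and 7.64% lower. Elovl1 and Elovl6, which lengthen fatty acids, were 1.57-fold higher and 1.53-fold higher, while Acaca, the acetyl-CoA carboxylase that commits carbon to fatty acids, was 1.57-fold lower and Acsl4 1.51-fold lower.

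In the epithelium 9 of 14 further sterol genes measured and 15 of 19 further fatty acid genes were higher in Ptger4-OFF, with median log2 ratios of 0.02 and 0.23. Past 1.5-fold, 7.41% of all genes measured there were higher and 10.6% lower. Nr1h3, the other liver X receptor, was 2.22-fold higher (95% interval 1.3 to 3.95), and Erlin1, an endoplasmic reticulum protein that binds cholesterol, 1.6-fold higher (95% interval 1.3 to 1.97). Osbp, an oxysterol-binding protein, was 1.62-fold lower, Cyp27a1, which makes 27-hydroxycholesterol, 1.62-fold lower and Gpam, which starts triglyceride synthesis, 1.79-fold higher on 11 and 27 UMIs.

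Of the 31 genes, 31 were measured in the epithelium and 30 in fibroblasts, where Idi1 fell short of 20 UMIs. Fdft1, Lss, Cyp51, Srebf1, Scap and Npc1 share exon positions with a gene on the other strand that is also in the tables, and Tm7sf2 and Acsl3 with one on the same strand. Whether the counting used strand is not given in the sources used here, so part of their counts may belong to the neighbour.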

How the data were processed

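The authors deposited 1 table of whole, unnormalized counts for each library, genes by barcodes, taken here as UMIs since the labels name Drop-seq. STAR 2.6 and build mm10 are named per the submitters' processing notes. How reads were counted (tool, annotation, strand, choice of barcodes) is not given in the sources used here. The replicate unit, a pool of 6 cultures, occurs once per condition, so no test across samples was possible.

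The members and lists were chosen with earlier results of these data known. Barcodes under 300 genes or over 20% mitochondrial UMIs were dropped (882 and 1564 passed), and 6 and 4 doublets called by Scrublet in scanpy 1.11.5 (Python 3.11.15) were removed, leaving 876 and 1560. Leiden clusters (igraph 0.11.9, resolution 0.5, 30 components, 2000 variable genes, 15 neighbours) were made jointly, without 67 symbols of the lipid lists, and named from marker lists. Clusters were rebuilt here, so their names may differ from the study's. One barcode sequence occurred in both libraries before filters and 0 after.

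UMIs were summed per class or cluster and library and divided by all UMIs of those cells (CPM). Each CPM has an exact Poisson interval and each ratio an exact conditional binomial interval (both 95%, scipy 1.17.1, counting error only). A gene needed 20 UMIs over both sides. Log2 ratios of genes in medians and lists add 0.5 to each count. The interval was checked on simulated counts. Gene positions and exon overlaps come from GENCODE vM21. Named genes were all members past 1.5-fold in a comparison and those nearest to no difference, with the rest as ranges. Alternatives covered filters, doublets, clustering, TMM scaling (edgeR 4.0.16, R 4.3.3), median-of-ratios scaling, cell weights, deep, paired or mixed barcodes, the UMI minimum, the fold and how fibroblast types were set. Restricting fibroblasts to cells with Xist and no Y-linked UMI was chosen after seeing the data.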

Additional observations from a re-analysis of the deposited data

Results flagged for a closer look

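Sc5d, Nsdhl and Pmvk, enzymes of cholesterol synthesis, were past 1.5-fold higher in fibroblast-like cells and past 1.5-fold lower in enterocyte-like cells of Ptger4-OFF than of Ptger4-ON, each with a counting interval on its own side of no difference. Msmo1 did so for the Grem1 type alone of the fibroblasts. The log2 ratio of Sc5d was 0.78 in fibroblast-like cells (0.92 in the Grem1 type and 0.87 in the Mgp type) and -0.73 in enterocyte-like cells. That of Nsdhl was 0.90 in fibroblast-like cells, 0.92 in the Mgp type and -0.79 in enterocyte-like cells. For Pmvk the values were 0.74, 0.72 and -0.88 in the same order. Msmo1 had 1.28 in the Grem1 type and -0.72 in enterocyte-like cells. The differences between these cell groups were not tested, since each condition has 1 library. Without the barcodes over 50000 UMIs, Pmvk alone of the 4 was still past 1.5-fold lower in enterocyte-like cells, at 0.546 on a linear scale. Sc5d was then at 0.673, Msmo1 at 0.829 and Nsdhl at 1.05, the last no longer lower. With each cell given equal weight, Pmvk was 1.07-fold higher and Nsdhl 1.23-fold higher in fibroblast-like cells, neither past 1.5-fold.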

How the results depend on the processing

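No paired analysis was possible because each condition has 1 library. Of the values that answer a comparison, 356 held under the alternatives, 41 moved and 7 reversed, and the cause was not tested unless stated. The 17 measured cholesterol enzymes of fibroblasts were all higher in Ptger4-OFF under each alternative run except the Xist-only cells, with 15 of 16. Sums below are log2 ratios. With TMM factors the epithelial cholesterol and fatty acid sums were 0.0747 and 0.43, and with median-of-ratios factors 0.0743 and 0.43. With equal weight for each cell the cholesterol sum was 0.0598 in the epithelium, 0.39 in fibroblasts and -0.40 in enterocyte-like cells, the cycling fatty acid sum was 0.0413, and 1 member (Npc1, named after its values were seen) was past 1.5-fold lower in the epithelium, where Scd1 was no longer past it higher. Without barcodes over 50000 UMIs the cholesterol sum was 0.13 in the epithelium, 0.28 in fetal-like and -0.46 in enterocyte-like cells, and the enterocyte-like fatty acid sum 0.29. With at least 500 genes per cell the fetal-like cholesterol and fatty acid sums were 0.18 and 0.46, with doublets kept 0.20 and 0.48, and with each library clustered alone 0.25 and 0.57. The fetal-like fatty acid sum was 0.35 with at most 10% mitochondrial UMIs and 0.34 with all variable genes in the clustering. The cycling cholesterol sum reversed to 0.0175 with doublets kept, 0.0187 with all variable genes and 0.0352 with each library alone. That of the Nrn1 and Ttr cluster was 0.0272 with all variable genes and reversed to -0.11 with each library alone, where the enterocyte-like fatty acid sum was 0.71.

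At a ratio only 25% above 1 (or its inverse) in place of 1.5-fold, 6 members were higher and 4 lower in the epithelium of Ptger4-OFF and 20 and 1 in its fibroblasts. In the Grem1 type at that fold, 19 were lower in Ptger4-ON, and 6 higher and 14 lower in Ptger4-OFF. The share of all genes past this lower fold was not measured, so no excess among the members can be read from these counts. With a minimum of 50 UMIs, 1 member was higher in the Grem1 type of Ptger4-ON. Abca1, named after its values were seen, was the 1 member past 1.5-fold lower in fibroblasts without cells that held both marker sets, and the 1 in Xist-only cells. Fibroblast types set from each cell's own UMIs reversed the Grem1-type sums to 0.0117 (cholesterol) and 0.0614 (fatty acid) in Ptger4-ON and to 0.0731 (fatty acid) in Ptger4-OFF, left 2 members lower in Ptger4-ON and 1 higher and 3 lower in Ptger4-OFF, and turned Nsdhl to 0.11, Hsd17b7 to 0.28, Sqle to 0.0715 and Acly to 0.16. In Xist-only cells, an alternative chosen after seeing the data, the Grem1-type sums were -0.95 (cholesterol) and -0.83 (fatty acid) in Ptger4-ON. In Ptger4-OFF the cholesterol sum was -0.39. Past 1.5-fold, 16 members were lower in Ptger4-ON and 5 higher in Ptger4-OFF. Sc5d turned to -0.59 in Ptger4-ON and Srebf2 to 0.30 in Ptger4-OFF. The share of all genes past 1.5-fold was not measured under the alternatives, including these cells and types set from UMIs. No excess among the members can be read from those counts. With each library clustered alone, Ptger4-OFF gave no separate Grem1-type cluster, so its comparison of the types has no value under that alternative. Depth limits the Grem1 type most: 52 cells a library left 8 of 18 cholesterol enzymes with 20 UMIs between the libraries.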
